A study of Mus musculus with 40 samples.

Results

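The genes described here are 9 genes of the glucocorticoid response and metal binding, Nr3c1, Hsd11b1, Fkbp5, Tsc22d3, Sgk1, Zbtb16, Dusp1, Mt1 and Mt2. They were chosen by gene symbol from the 29411 symbols on the array, and 16 of its 40628 probes carry one of them. All 9 were found, and all 9 matched a RefSeq gene by gene ID. Each array measured total RNA of the stromal vascular cells (SVCs) of subcutaneous fat from C57BL/6J mice, that is, the cells other than mature fat cells, in 1 colour. Weanlings of 3 to 4 weeks of age were allotted to a low fat diet with 10% of its calories from fat (LFC), to a high fat, high sucrose diet with 60% (HFC), or to the latter with 5, 20 or 75 µg of Kal-1 (HF5, HF20 and HF75). There were 11 LFC, 11 HFC, 6 HF5, 5 HF20 and 5 HF75 arrays, 1 for each diet and time point, so that a diet is replicated over time points only. LFC and HFC were sampled at days 1, 6, 10 and 14 and at weeks 0, 3, 6, 9, 12, 15 and 18, and the Kal-1 diets from week 3 on. The labels do not say how many mice went into an array. Week 0 was placed on day 14, as day 14 and week 0 are separate arrays of 1 age. Another 2 arrays of week 18 have labels that conflict and are in no comparison. Both arrays of day 6 carry P5 in their titles, which the labels do not explain.

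Glucocorticoids enter cells and bind the receptor encoded by Nr3c1, which then acts on DNA to raise or lower transcription. In fat, the enzyme encoded by Hsd11b1 regenerates active hormone inside the cell, so the response there depends on local supply as well as on blood levels. Among the known targets, Fkbp5 encodes a chaperone that dampens the receptor, Tsc22d3 (also called GILZ) an anti-inflammatory protein, Sgk1 a kinase of ion transport and survival, Zbtb16 a transcription factor, and Dusp1 a phosphatase that switches off stress kinases. Mt1 and Mt2 encode metallothioneins, small proteins that bind zinc and copper and are induced by metals, by glucocorticoids and by stress.

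Levels are log2 intensities on a scale where the 75th percentile of an array is 0. On 36 of the 38 assigned arrays, 53.4% to 87.2% of the probes were well above background, and an array's rank correlations with the others had a median of 0.832 to 0.941. LFC week 3 had 17.2% of its probes well above background and a median rank correlation of 0.447. LFC day 14 had 9104 outlier spots and a median rank correlation of 0.471. Both stand apart from the rest. For the 9 genes, differences between HFC and LFC are given with and without them. The change of these differences between the periods is given with them, apart from ranges over the alternatives, which include the fit without them. Array number limits the precision of every value below. The Mt2 probe was saturated on 12 of the 38 arrays, Mt1 on 3, Dusp1 on 2 and Sgk1 on 1, so levels on those arrays are lower bounds and differences that include them are inexact.

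The labelled cells were checked against marker lists. On LFC week 18 the mean level of the 8 adipocyte markers was -6.04, of the 7 fibroblast and progenitor markers -3.69 and of the 4 endothelial markers -3.66, the lowest of all 38 arrays for each list. Mature fat cells should be few in SVCs, yet the mean level of the adipocyte markers was 4.60 or higher on 10 arrays. On 7 of these, HFC day 1, LFC day 6, LFC week 9, HF5 week 9, HF20 week 9, LFC week 12 and HF20 week 12, the 11 genes of a list that responds to tissue digestion (Fos, Jun, Egr1 and similar immediate early genes) had a mean level of -0.77 to 0.96. On the other 29 of the 36 arrays that mean was 1.91 to 5.46. The other 3 arrays with high adipocyte markers, HFC day 6 (5.88), HFC week 9 (5.00) and HF20 week 15 (5.39), are among the 29. In bulk RNA, fewer cells of a type and less RNA per cell cannot be told apart.

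**Figure D1:**
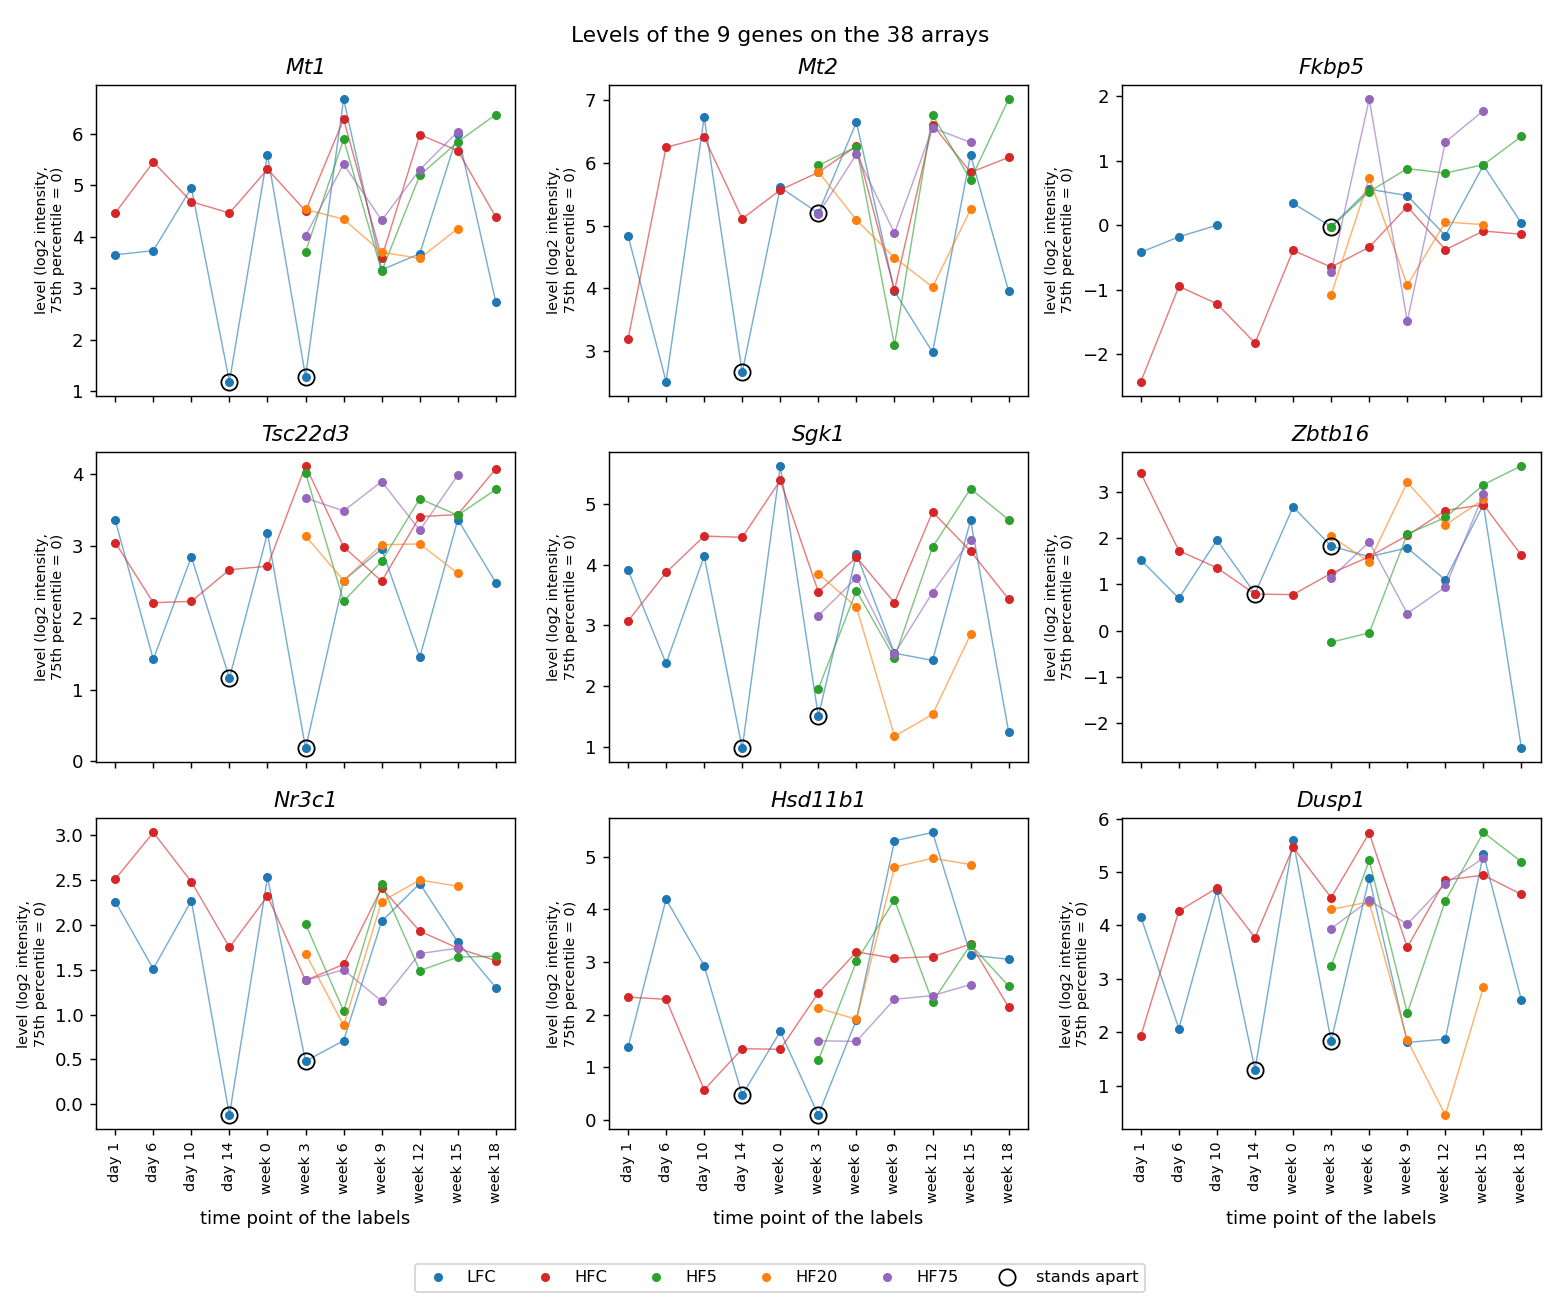
Level of each of the 9 genes (log2 intensity, 75th percentile of the array at 0) at each time point of the labels, 1 point for each of the 38 arrays, coloured by diet. Circles mark LFC day 14 and LFC week 3, which stand apart. Mt1, Mt2, Sgk1 and Dusp1 are lower at week 9 than at weeks 6 and 15 in all 5 diets.

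The level of the receptor gene Nr3c1 ran from 0.71 to 3.03 on the 36 arrays that do not stand apart, lowest on LFC week 6 and highest on HFC day 6. Its 3 other probes gave lower levels and correlated with the used probe at 0.0611, 0.0418 and 0.539 across arrays, so its values rest on 1 probe. Hsd11b1, the enzyme that regenerates active hormone, ran from 0.57 on HFC day 10 to 5.46 on LFC week 12. It was above 4 on 7 arrays, LFC day 6, LFC week 9, LFC week 12, HF5 week 9, HF20 week 9, HF20 week 12 and HF20 week 15.

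Among the receptor targets, Fkbp5 was lowest on HFC day 1, at -2.43, and highest on HF75 week 6, at 1.96. The 2 other Fkbp5 probes correlated with it at 0.322 and 0.303 only, and both are dimmer. The cause of the low correlation was not tested, so a sign shared by these probes carries little weight. Tsc22d3 ran from 1.42 to 4.12 and Zbtb16 from -2.55 on LFC week 18 to 3.57 on HF5 week 18. Sgk1 ran from 1.17 on HF20 week 9 to 5.63 on LFC week 0. Dusp1 ran from 0.45 on HF20 week 12 to 5.74 on HF5 week 15, and its second probe followed it with a correlation of 0.993. The Dusp1 probe was saturated on HF5 week 15 and on LFC week 0 (5.59), so the highest array is uncertain.

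The metallothionein genes were well above background on all 38 arrays. Mt1 ran from 2.73 on LFC week 18 to 6.67 on LFC week 6, and Mt2 from 2.51 on LFC day 6 to 7.02 on HF5 week 18, again on the 36 arrays. As Mt2 was saturated on HF5 week 18 and other arrays, and Mt1 on HFC week 6 (6.28), the highest array is uncertain for both. They are neighbours on chromosome 8, with 0 genes between them in the annotation, but their probes are distinct, as the 60-base probes differ by at least 33 edits and share no run longer than 6 bases.

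HFC against LFC asks what the high fat diet does at matched time points. No gene of the 9 passed an adjusted p of 0.05 in limma, and neither did any of the 29215 probes tested (percent called 0). At an unadjusted p under 0.05 there were 4 of the 9 genes and 820 probes, 2.81% of those tested. Levels of Fkbp5 were, in LFC, -0.42 at the lowest, 0.93 at the highest and 0.15 on average (SD 0.41, n = 10), and in HFC -2.43 at the lowest, 0.29 at the highest and -0.74 on average (SD 0.81, n = 11). The HFC level was the lower one at 10 of 10 time points where both were measured, and the ranges overlapped. The fitted log2 difference was -0.78 (SE 0.28, unadjusted p 0.0139 and adjusted p 0.941 in limma), and both other Fkbp5 probes had the same sign. LFC day 14 has no Fkbp5 value and on LFC week 3 Fkbp5 was not well above background. Without those 2 arrays and their partners the difference was -0.80, lower in HFC at 9 of 9 time points.

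The metallothioneins and early response genes had positive differences of about 1 in HFC against LFC, none past the threshold. Mt1 levels were 1.19 to 6.67 in LFC and 3.59 to 6.28 in HFC, with HFC the higher at 7 of 11 time points. The log2 differences were 1.08 for Mt1 (SE 0.42), 0.90 for Mt2 (SE 0.50), 1.02 for Sgk1 (SE 0.42) and 1.11 for Dusp1 (SE 0.46), each with an adjusted p of 0.941. For Mt2 the median difference over time points was 0.02, with HFC the higher at 6 of 11, so its mean comes from a few time points. Without the arrays that stand apart and their partners they were 0.60, 0.76, 0.63 and 0.78. With array quality weights, which give less weight to arrays that fit poorly, they were 0.08, 0.18, 0.25 and 0.58, so their size depends on how the arrays are weighted. Several marker lists differed as well, with 0 genes past the threshold. The median was 1.24 for the digestion response list (11 of 11 positive), 1.26 for fibroblast and progenitor markers (7 of 7), 0.86 for adipocyte (7 of 8), 0.83 for endothelial (4 of 4) and -1.32 for epithelial markers (0 of 5), against -0.08 over all probes. Part of this rests on LFC week 18. Without week 18 the mean level difference went from 0.70 to -0.07 for the adipocyte list, from 1.04 to 0.37 for fibroblast and progenitor and from 0.88 to 0.39 for endothelial, but only from 1.31 to 1.17 for the digestion response list. Their part in the differences was not tested.

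Of the other genes, Tsc22d3 differed by 0.77, Zbtb16 by 0.52, Nr3c1 by 0.50 and Hsd11b1 by -0.40 between HFC and LFC. Without the arrays that stand apart and their partners these were 0.34, 0.71, 0.30 and -0.85, and with array quality weights -0.08, -0.45, 0.18 and -0.69. Without the arrays of week 9 and day 6 Hsd11b1 was at -0.04, and leaving out each time point in turn gave 0.16 to 0.77 for Zbtb16. None of the 4 differences is therefore firm in size.

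The wider pathway lists gave 0 genes past the threshold in HFC against LFC. Of 22 further receptor targets 15 had a positive difference (median 0.32), among them Angptl4, a lipase inhibitor, with means of 5.94 in HFC and 5.05 in LFC, and Nfkbia, an inhibitor of NF-kappaB. Of 10 genes of receptor chaperones and steroid conversion 8 were positive (median 0.18). The chaperone gene Hsp90aa1 had means of 5.40 and 5.27. Of 20 tested genes of metal handling 9 were positive (median -0.06).

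HF5 against HFC, HF20 against HFC and HF75 against HFC ask what Kal-1 changes on top of the high fat diet, and they share HFC arrays. For HF5, 0 of the 9 genes and 0 of 29200 probes passed in limma (percent called 0). The unadjusted p was under 0.05 for 1507 probes, 5.16% of those tested, and for 1 gene. That gene was Fkbp5. Its HF5 levels ran from -0.03 to 1.38 with a mean of 0.75, and the HFC levels at the same time points from -0.65 to 0.29 with a mean of -0.22. HF5 was the higher at 6 of 6 time points, by 0.58 to 1.52, and the ranges overlapped. The log2 difference was 0.97 (SE 0.19, unadjusted p 0.000947, adjusted p 0.906 in limma), and both other Fkbp5 probes had its sign. At the 3 time points whose arrays share a slide the differences averaged 1.24. The other 8 genes, Mt1, Mt2, Tsc22d3, Sgk1, Zbtb16, Nr3c1, Hsd11b1 and Dusp1, differed by -0.33 to 0.03 over all 6 time points. Where the arrays share a slide, Zbtb16 averaged 0.74, Sgk1 0.59, Mt1 0.46, Dusp1 0.34 and Mt2 0.32. Tsc22d3 averaged -0.01 there, and Nr3c1 and Hsd11b1 -0.16 each. Marker lists differed in the same comparison, with 0 genes past the threshold and medians of 1.74 for epithelial (5 of 5 positive), -0.63 for T cell (0 of 5), -0.58 for adipocyte (0 of 8), -0.56 for fibroblast (0 of 7), -0.44 for macrophage (2 of 7), -0.43 for digestion response (1 of 11), -0.42 for B cell (0 of 5) and -0.33 for endothelial genes (0 of 4). Their part in the Fkbp5 difference was not tested.

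For HF20, 0 of the 9 genes and 0 of 30831 probes passed in limma (percent called 0). An unadjusted p under 0.05 in limma was found for 3 genes and for 3649 probes, 11.8% of those tested. Dusp1 had HF20 levels of 4.30, 4.44, 1.85, 0.45 and 2.84 at weeks 3, 6, 9, 12 and 15, and HFC levels of 4.52, 5.73, 3.59, 4.85 and 4.94. It was lower in HF20 at 5 of 5 time points, with the wider gaps from week 9 on. The log2 difference was -1.95 (SE 0.57, adjusted p 0.406 in limma), that of Sgk1 -1.49 (SE 0.52) and that of Mt1 -1.14 (SE 0.45). Mt2 differed by -0.77, Hsd11b1 by 0.71, Tsc22d3 by -0.43, Zbtb16 by 0.33, Nr3c1 by 0.15 and Fkbp5 by -0.01. Leaving out each time point in turn gave -1.09 to -0.31 for Mt2, 0.42 to 1.21 for Hsd11b1, -0.66 to -0.29 for Tsc22d3 and -2.38 to -1.34 for Dusp1. It gave -1.93 to -1.02 for Sgk1, -1.45 to -0.83 for Mt1, 0.12 to 0.49 for Zbtb16 and 0.01 to 0.35 for Nr3c1. Fkbp5 changed sign (-0.28 to 0.29). The digestion response list had a median of -2.66 with 0 of 11 genes positive and the adipocyte list a median of 2.27 with 8 of 8 positive, against a median of 0.08 over all probes. The T cell (-1.80, 1 of 5 positive), B cell (-1.20, 0 of 5) and macrophage lists (-0.53, 0 of 7) were lower. Their part in the differences was not tested.

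For HF75, 0 of the 9 genes passed in limma, beside 293 of 28910 probes (percent called 1.01). With no adjustment, 1 gene and 4208 probes, 14.6% of those tested, had a p under 0.05 in limma. Hsd11b1 had levels of 1.49 to 2.57 in HF75 and of 2.41 to 3.34 in HFC, so the ranges overlapped. HF75 was the lower at 5 of 5 time points. The log2 difference was -0.98 (SE 0.25, unadjusted p 0.00584, adjusted p 0.152 in limma). With array quality weights its adjusted p was 0.039, and over all alternatives it ran from 0.039 to 0.955. Fkbp5 differed by 0.80 (SE 0.61), but its 2 other probes had the opposite sign, and over all alternatives it ran from 0.09 to 1.77. Zbtb16 differed by -0.58, Sgk1 by -0.54, Tsc22d3 by 0.36, Nr3c1 by -0.31, Dusp1 by -0.23, Mt1 by -0.19 and Mt2 by 0.11. When a time point was left out, Zbtb16 ran from -0.81 to -0.31, Sgk1 from -0.73 to -0.35 and Tsc22d3 from 0.11 to 0.57. Nr3c1 ran from -0.39 to -0.08 and Mt1 from -0.42 to -0.02. Dusp1 (-0.40 to 0.03) and Mt2 (-0.09 to 0.30) changed sign. HF75 and HFC arrays shared a slide at 0 of the 5 time points and a scan day at 2. Marker lists differed too, with medians of 1.88 for epithelial (5 of 5 positive), -0.97 for macrophage (1 of 7) and -0.83 for fibroblast genes (1 of 7). Their part was not tested.

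Across the 3 Kal-1 diets, 0 genes of the wider receptor target, chaperone and metal handling lists passed in limma. The receptor targets had medians of 0.09 with 5 µg, -0.33 with 20 µg and -0.14 with 75 µg, and the metal handling genes 0.12, 0.04 and 0.07. Of the cell type lists, the fibroblast gene Dpt fell in HF75, by 2.43 on the log2 scale (adjusted p 0.0395 in limma).

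Weeks 3 to 18 against the first 14 days compares later with earlier sampling over both LFC and HFC. Age, time on the diet and processing cannot be told apart there. No gene of the 9 and no probe of the 30259 tested passed in limma (percent called 0). There were 1 gene and 845 probes, 2.79% of those tested, at an unadjusted p under 0.05. Fkbp5 averaged 0.04 in the later period and -0.79 in the first 14 days, a log2 difference of 0.80 (SE 0.31, unadjusted p 0.0177). Hsd11b1 differed by 1.16 (SE 0.60), Sgk1 by -0.48, Nr3c1 by -0.44, Mt2 by 0.40, Tsc22d3 by 0.31, Mt1 by 0.16, Dusp1 by 0.09 and Zbtb16 by -0.04. Across fits that left out 1 time point, Hsd11b1 ran from 0.91 to 1.51, Sgk1 from -0.76 to -0.06 and Nr3c1 from -0.75 to -0.30. Mt2 ran from 0.15 to 0.83 and Tsc22d3 from 0.14 to 0.49. Signs changed for Mt1 (-0.23 to 0.49), Dusp1 (-0.22 to 0.52) and Zbtb16 (-0.28 to 0.36). Over the other alternatives Nr3c1 ran from -0.62 to 0.00, with 1 change of sign. Tsc22d3 ran from 0.13 to 0.83 and Zbtb16 from -0.24 to 0.80 there. The receptor target, chaperone and metal handling lists had 0 genes past the threshold. In the same comparison the adipocyte list had a median of -2.28 (1 of 8 positive) and the endothelial list of -1.15 (0 of 4), with 0 genes past the threshold. Medians were -0.95 for muscle (0 of 5), -0.88 for B cell (0 of 5), -0.34 for T cell (0 of 5) and 0.64 for macrophage markers (6 of 7). Without week 18 the mean level difference went from -1.95 to -1.32 for adipocyte and from -1.09 to -0.70 for endothelial. It went from -1.02 to -0.49 for muscle and from 0.60 to 0.54 for macrophage markers. For B cell markers it grew from -0.69 to -1.19 and for T cell markers from -0.51 to -0.87. The part of these lists was not tested. The consensus correlation of arrays of 1 time point was 0.205. With the replicate block left out the count of genes was 0 as well.

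The change of the HFC effect between the periods was tested by an interaction term. No gene of the 9 and no probe passed in limma (percent called 0), with 0 genes and 1240 probes (4.24% of those tested) at an unadjusted p under 0.05. The interaction of Dusp1 was 1.17 (SE 0.91) and that of Tsc22d3 1.08 (SE 0.81), while the median over all probes was -0.50. Those of Zbtb16, Fkbp5, Sgk1, Hsd11b1, Mt2 and Mt1 were 0.82, 0.66, 0.31, 0.27, 0.13 and 0.06, and that of Nr3c1 was -0.43. With each time point left out in turn, Dusp1 ran from 0.50 to 1.67, Tsc22d3 from 0.54 to 1.42 and Zbtb16 from 0.16 to 1.27. Fkbp5 ran from 0.39 to 0.81 and Nr3c1 from -0.66 to -0.14. The sign changed for Mt1 (-0.36 to 0.62), Mt2 (-0.50 to 0.85), Sgk1 (-0.11 to 0.97) and Hsd11b1 (-0.24 to 0.69). Nr3c1 ran from -0.88 to 0.19 over the other alternatives, with 1 change of sign. The 3 pathway lists had 0 genes past the threshold. The lists of T cell (3.89), B cell (3.60), digestion response (1.69), fibroblast (1.51), macrophage (0.92) and endothelial genes (0.55) had positive medians, with every gene positive and 0 past the threshold. Without week 18 the mean level interaction of the fibroblast list went from 1.87 to 0.70. It went from 0.57 to -0.34 for endothelial, from 0.05 to -1.48 for adipocyte and from 0.20 to -1.53 for muscle markers. The T cell (3.43 to 3.48), B cell (3.44 to 3.91), macrophage (0.87 to 1.15) and digestion response lists (1.76 to 1.64) stayed positive.

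At week 9, 4 of the 5 arrays carry the letters WS in their titles, which the labels do not explain. They were compared with weeks 6 and 15 of the same diets, LFC, HFC, HF5 and HF20. The letters, the week and the scan day of the WS arrays cannot be told apart. Here 4 of the 9 genes fell, Mt1, Mt2, Sgk1 and Dusp1, where limma called 2223 of 31346 probes (percent called 7.09; 2.42 for probes that fell).

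Mt1 was at 3.36, 3.59, 3.33 and 3.70 on the WS arrays of LFC, HFC, HF5 and HF20, and at 4.16 to 6.67 on the 8 arrays of weeks 6 and 15. The groups did not overlap, and the level was below both others of its diet in 4 of 4 diets. Mt1 fell by 2.11 on the log2 scale (SE 0.37, adjusted p 0.0389 in limma). Mt2 was at 3.95, 3.97, 3.09 and 4.49 on the WS arrays and at 5.09 to 6.65 on the others, again without overlap. Mt2 fell by 2.03 (SE 0.34, adjusted p 0.0389 in limma). The Mt1 probe was saturated on 2 and the Mt2 probe on 6 of the 8 arrays of weeks 6 and 15, and neither on a WS array, so saturation may make both falls look smaller than they were.

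Sgk1, the ion transport kinase, was at 2.54, 3.37, 2.46 and 1.17 on the WS arrays and at 2.85 to 5.25 on the others. Dusp1, the stress kinase phosphatase, was at 1.81, 3.59, 2.36 and 1.85 and at 2.84 to 5.74. The ranges of both genes overlapped between the groups, but within a diet the WS level was below both others in 4 of 4 diets. Sgk1 fell by 1.64 (SE 0.35, adjusted p 0.0398 in limma) and Dusp1 by 2.49 (SE 0.39, adjusted p 0.0389 in limma). The second Dusp1 probe was called too. The first Dusp1 probe was saturated on 1 of the 8 arrays.

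The other 5 genes did not pass. Nr3c1 differed by 0.81 (adjusted p 0.144) and Hsd11b1 by 1.26 (adjusted p 0.189). Fkbp5 differed by -0.23, although 1 of its 2 other probes was called, Tsc22d3 by -0.07 and Zbtb16 by 0.28. Of the 22 further receptor targets 2 rose, Lpin1 (by 2.94) and Klf15 (by 2.11), and 4 fell, Lcn2, Zfp36, Nfkbia and Cebpd, with a median of -0.14, where limma called 7.09% of all probes. In the receptor, chaperone and steroid conversion list 0 of 10 passed, and in metal handling 1 of 20, Gclc, which fell by 1.01.

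The adipocyte, digestion response and epithelial lists had medians larger in size than the differences of the 9 genes. Of the adipocyte markers 7 of 8 rose, with a median of 4.68, and of the digestion response list 10 of 11 fell, with a median of -3.17. Of 5 epithelial markers 4 fell, with a median of -5.57. The other lists moved less, with medians of -0.06 for endothelial, -0.10 for macrophage, -0.47 for fibroblast, -1.19 for T cell, -1.41 for muscle and -1.67 for B cell markers. Of 7 macrophage markers 1 fell, Cd14, and of 7 fibroblast markers 1, Pdgfra. The part of these lists in the lower Mt1, Mt2, Sgk1 and Dusp1 levels was not tested. The HF75 array of week 9 has no WS in its title and was scanned on another day. Its levels of Mt1 (4.32), Mt2 (4.88), Sgk1 (2.53) and Dusp1 (4.02) were also below those of HF75 weeks 6 and 15. So were Fkbp5, Zbtb16 and Nr3c1, 7 of the 9 genes in all. The share of all probes below both weeks on this array was not computed, so the count has no measure beside it. This array differed from those weeks in other ways, as its T cell list was at 2.01 against -3.61 and -3.03 and its B cell list at 2.01 against -4.58 and -4.24. Its digestion response level, 4.09, was below those of weeks 6 (5.24) and 15 (5.23) too.

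The calls of the 4 genes and those within the lists rest on the set of arrays. In 9 of the 12 fits that left out 1 array, 0 probes passed, so the calls within the lists were lost there too. Leaving out each of the 12 arrays in turn gave 0 of the 9 genes in 10 of 12 fits, 4 without the HF20 array of week 9 and 5 without that of week 15. The highest adjusted p of the 4 genes was then 0.189, while their differences ran from -2.63 to -1.82 for Mt1, from -2.48 to -1.74 for Mt2, from -1.92 to -1.45 for Sgk1 and from -2.74 to -2.22 for Dusp1.

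**Figure D2:**
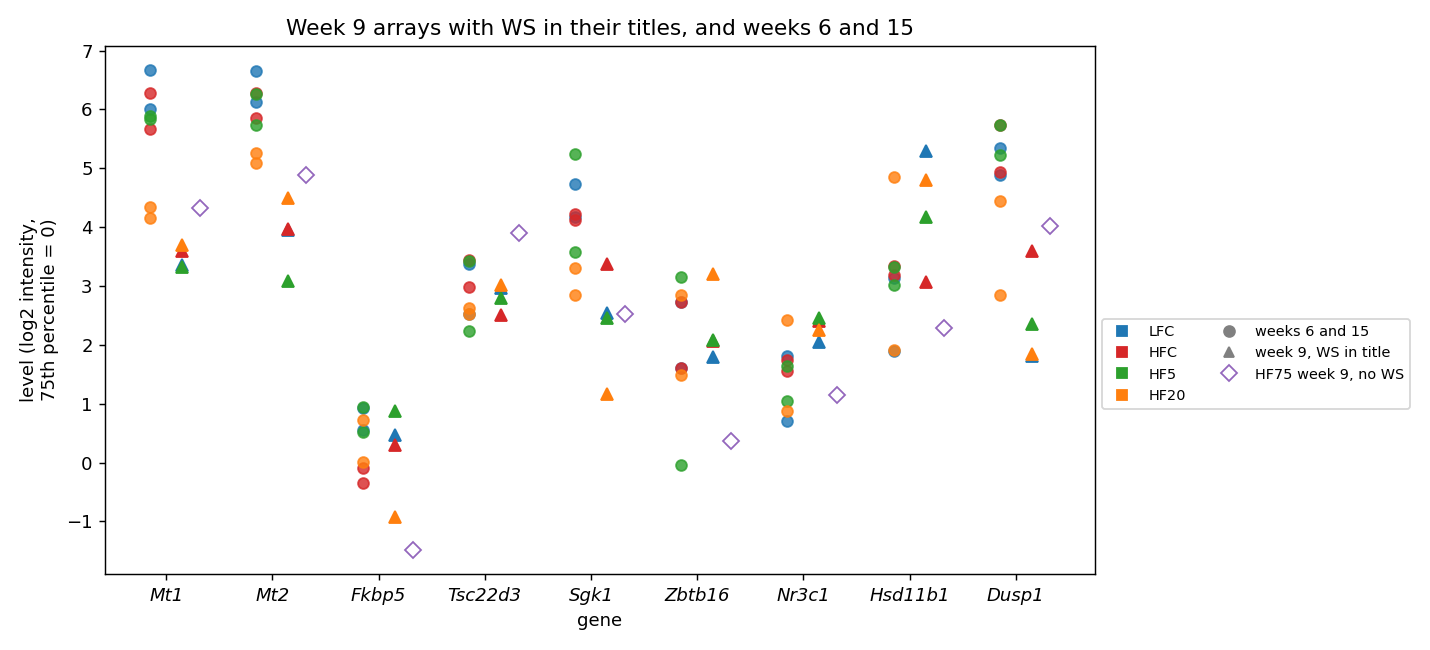
Levels (log2 intensity, 75th percentile of the array at 0) of the 9 genes on the 4 WS arrays of week 9 (triangles) and on the 8 arrays of weeks 6 and 15 (circles), coloured by diet, with the HF75 array of week 9 as an open diamond. All triangles of Mt1 and Mt2 lie below all circles.

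Across the 36 arrays that do not stand apart, 10 of the 36 pairs of the 9 genes passed an adjusted p of 0.05 (permutation test on Pearson's r, adjusted over the 36 pairs), 7 with a positive and 3 with a negative correlation, and 6 pairs passed with Spearman's rho. The arrays fall on either side of a gap of 0.95 in the mean level of the digestion response list, 7 below and 29 above, a split made after the levels were seen. A second gap of 0.92 lies higher up, and HF20 week 15 (1.91) and LFC week 18 (2.08) lie between the gaps and count among the 29. Below the gap Mt2 was at 2.51 to 4.49 and Dusp1 at 0.45 to 2.36; above it Mt2 was at 3.95 to 7.02 and Dusp1 at 2.60 to 5.74. Correlations of the 9 genes with each other and with the lists are therefore given among the 29 arrays, from permutations that ignore diet and time. Within the 7 arrays, 1 pair passed. How many pairs of other genes pass was not computed for any set of arrays. The counts therefore cannot be called particular to the 9 genes.

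Among the 29 arrays 9 of the 36 pairs passed, all 9 positive. All 6 pairs of Mt1, Mt2, Sgk1 and Dusp1 were among them. Mt1 and Dusp1 had r = 0.84 (permutation p 1e-05, the smallest that 100000 permutations give, adjusted 1.20e-04; rho 0.85, permutation p 1e-05). Sgk1 and Dusp1 had r = 0.81 (permutation p 1e-05; rho 0.74, permutation p 2.00e-05). Mt1 and Mt2 had r = 0.76 (permutation p 2.00e-05, adjusted 1.80e-04; rho 0.70, permutation p 7.00e-05). Without the 2 arrays farthest from the median of the first gene these were 0.77, 0.71 and 0.65. The weakest of the 6, Mt2 with Sgk1, had r = 0.48 (permutation p 0.0092; rho 0.41, permutation p 0.028) and 0.28 without the 2 farthest arrays, so it rests on those. Without the 2 arrays between the gaps, 5 pairs passed among 27 arrays, Mt1 with Mt2 (r = 0.69), Sgk1 (0.61) and Dusp1 (0.81), and Sgk1 with Dusp1 (0.74) and Zbtb16 (0.64). Mt2 with Dusp1 (0.46) and with Sgk1 (0.28) did not pass there. In the 29 arrays Zbtb16 joined 3 pairs, with Mt1, Sgk1 and Dusp1. By Pearson's r no pair with Fkbp5, Tsc22d3, Nr3c1 or Hsd11b1 passed in either set. By Spearman's rho 10 pairs passed among the 27 arrays, among them Mt1 with Fkbp5 (rho 0.48) and Hsd11b1 (0.48), and Zbtb16 with Fkbp5 (0.48) and Hsd11b1 (0.55).

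The digestion response list correlated with the same 4 genes and with Zbtb16. Among the 29 arrays its mean level correlated with Dusp1 at r = 0.83 (permutation p 1e-05; rho 0.71), with Mt1 at 0.74 (permutation p 1e-05; rho 0.79), with Sgk1 at 0.73 (permutation p 4.00e-05; rho 0.65) and with Mt2 at 0.72 (permutation p 5.00e-05; rho 0.76), of 18 relations computed between the 9 genes and 2 lists. Zbtb16 had r = 0.48 (permutation p 0.0134, adjusted 0.0402; rho 0.46) but 0.04 over all 36 arrays. Among the 27 arrays r was 0.71 for Dusp1, 0.73 for Mt1, 0.63 for Sgk1, 0.71 for Mt2 and 0.51 for Zbtb16. Dusp1 is itself an immediate early gene. Hsd11b1 had r = -0.72 over all 36 arrays but -0.32 among the 29 (permutation p 0.0941; rho 0.05), which did not pass within the arrays above the gap. The receptor gene Nr3c1 correlated with the adipocyte list at 0.59 (permutation p 8.30e-04; rho 0.58) among the 29. Dusp1 was at -0.09 with that list among the 29. Among the 27 arrays both passed, Nr3c1 at r = 0.61 and Dusp1 at -0.47. Over all 36 arrays, on both sides of the gap, r with the adipocyte list also passed for 4 other genes. It was -0.55 for Dusp1, -0.46 for Mt2, 0.44 for Hsd11b1 and 0.39 for Zbtb16. By Spearman's rho Dusp1 (-0.63) and Mt2 (-0.48) passed, but Hsd11b1 (0.31) and Zbtb16 (0.12) did not. Mt1 (-0.50) and Sgk1 (-0.37) passed by rho only. Without the 2 arrays farthest from the median of the list, r was -0.78 for Dusp1, -0.67 for Mt2, 0.53 for Hsd11b1 and 0.14 for Zbtb16. Relative to the mean of each time point, the correlations with the digestion response list were 0.96 for Dusp1, 0.83 for Mt2, 0.81 for Sgk1, 0.70 for Mt1, 0.62 for Tsc22d3 and -0.78 for Hsd11b1, over arrays on both sides of the gap.

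**Figure D3:**
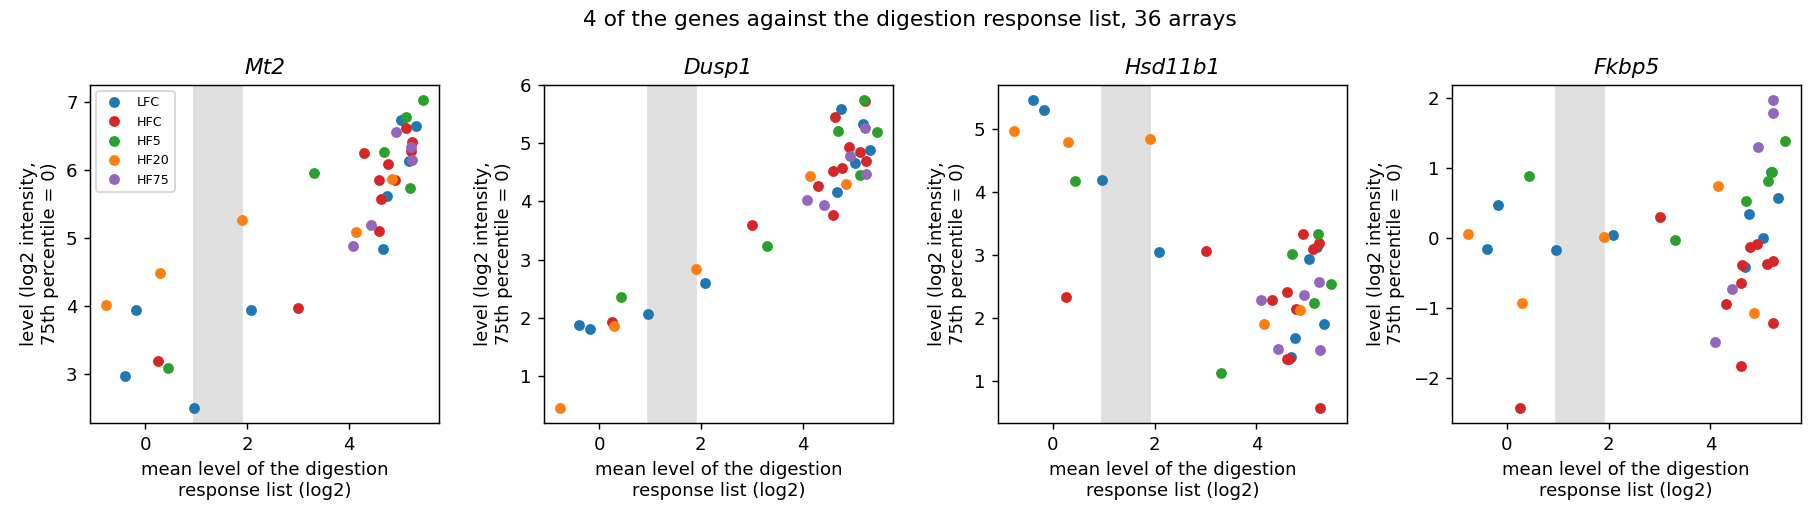
Level of Mt2, Dusp1, Hsd11b1 and Fkbp5 (log2 intensity, 75th percentile of the array at 0) against the mean level of the 11 measured genes of the digestion response list, 1 point for each of 36 arrays, coloured by diet. The grey band is the gap of 0.95 between 7 and 29 arrays. Mt2 and Dusp1 are higher where the list is higher, and Fkbp5 is less closely related to it (r = 0.21, rho 0.34).

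The genes most like the mean of Mt1 and Mt2 over the 36 arrays, among 9845 genes well above background on all of them, were Gprc5a (r = 0.90), Gdf15 (0.89), Zfp36 (0.88), Ier3 (0.88) and Selp (0.88). Without the WS arrays their r was 0.86 to 0.88. Gdf15 encodes a stress-induced cytokine, Zfp36 a protein that destabilises inflammatory mRNAs and Ier3 an early response protein, and Zfp36 is also on the receptor target list and Ier3 on the digestion response list. The genes most like Fkbp5 were Rpn2 (r = 0.67), Spsb2 (0.65), Creb3l2 (0.64), Plekhg3 (0.62) and Man2b2 (0.62), with 0.44 to 0.54 left without the 2 arrays farthest from the median of Fkbp5. For both patterns the arrays lie on both sides of the gap in the digestion response level. No value among the arrays above the gap alone is given.

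The bases before the listed starts of the 9 genes were searched on both strands in RefSeq sequence of build GRCm38.p6. The motifs were the core of the metal response element (TGCACNC or TGCGCNC), the glucocorticoid receptor element (AGAACA and TGTTCT separated by 3 bases) and the cyclic AMP response element (TGACGTCA). Of the 32851 listed promoters, 21.4% held at least 1 metal response core in the 250 bases before the start and 1.26% held 3 or more, 0.00913% held the receptor element and 1.55% the cyclic AMP element. Mt2 held 3 metal response cores and Dusp1 held 1 cyclic AMP element. The listed start of Mt1 lies 206 bases inside the RefSeq gene, so its window is not the region before the gene and is not printed. It held 1 core in the 250 bases and 3 in all 300 listed bases, where Mt2 held 4 and 1.97% of promoters held 3 or more. The longer window was added after the first counts were seen. Of 6 listed starts of Sgk1, 1 held the receptor element, but it lies 111706 bases inside the gene. No motif was found for Fkbp5 or Tsc22d3, which says only that these letters are not in the windows, Hsd11b1 held 1 metal response core at a start 21685 bases inside the gene, and Nr3c1 and Zbtb16 are not listed. The promoters of Mt2 and Dusp1 are shown because both genes fell in the WS arrays and held a motif before the start. Sgk1 fell as well, but its start at the edge of the gene held none of the motifs, and it is not shown. Capitals mark the metal response cores of Mt2, chr8:94172368-94172617 on the + strand, and the cyclic AMP element of Dusp1, chr17:26508473-26508722 on the - strand.
Mt2: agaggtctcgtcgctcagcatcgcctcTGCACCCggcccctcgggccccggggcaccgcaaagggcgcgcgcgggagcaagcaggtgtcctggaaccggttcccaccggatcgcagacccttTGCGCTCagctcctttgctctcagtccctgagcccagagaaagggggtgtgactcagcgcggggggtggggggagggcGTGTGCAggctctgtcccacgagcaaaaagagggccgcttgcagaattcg
Dusp1: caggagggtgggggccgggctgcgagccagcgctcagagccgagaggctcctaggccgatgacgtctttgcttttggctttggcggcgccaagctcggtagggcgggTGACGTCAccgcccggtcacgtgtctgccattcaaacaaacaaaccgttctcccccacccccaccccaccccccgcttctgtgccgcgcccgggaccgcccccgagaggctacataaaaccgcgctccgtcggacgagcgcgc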

How the data were processed

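The deposited files hold 1-colour spot intensities of 40 arrays of 45220 spots, background-corrected by the authors' scanner software, Feature Extraction 10.5.1.1 per the file headers (9.1 per the labels), with no normalization between arrays. The deposited table also holds 40 fold change columns of the authors' own comparisons, which were not used here. Its gene IDs and symbols were. Per-array depth does not apply to arrays. The 75th percentile of the intensity was 160 to 1793 on the 36 arrays that do not stand apart.

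The log2 of each intensity was taken with the array's 75th percentile subtracted. Outlier spots were dropped, repeated spots averaged, and values not well above background raised to the lowest well-above level of the array. Each gene takes the values of 1 probe, the one of highest mean. Fits covered probes that 50% or more of 1 group's arrays had well above background. They were made with limma 3.58.1 in R 4.3.3, with Benjamini-Hochberg adjustment over all probes tested and a threshold of 0.05. Time point was a fixed block, or a random block between periods; the WS comparison had diet as a fixed term. Correlations used Python 3.11.15, numpy 2.4.6 and 100000 two-sided permutations. The fits were tested on simulated data, and the outcome is not given here.

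The 9 genes and the lists were chosen with earlier results of these data known. All 9 are named in each comparison; of each pathway list at most 4 genes per direction past the threshold are named, or, where none passed, 1 or 2 of those with the highest mean level. The alternatives were normexp background correction (offset 50), quantile normalization, no filter, dim values as measured, array quality weights, no replicate block, a threshold of 0.1, the mean of a gene's probes, and leaving out arrays. Restrictions to 1 scan day, slide and scan day as blocks, correlations with lists, the split at the gaps, list levels without week 18 and the 300-base window were chosen after seeing the data. The arrays came from 32 slides and 16 scan days; HFC and LFC shared a slide at 4 time points and HF5 and HFC at 3, and a scan day at 10 of 11 and 6 of 6. HF20 and HF75 shared a slide with HFC at 0 time points and a scan day at 4 and 2 of 5.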

Additional observations from a re-analysis of the deposited data

Results flagged for a closer look

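Mt2 on the HF5 array of week 9, one of the WS arrays, was at 3.09, far below the other HF5 arrays, which ran from 5.73 to 7.02. The probe was saturated on HF5 weeks 12, 15 and 18, so the levels there, with both ends of that range, are lower bounds. Of 28 groups tested in this way 1 stood out, and chance gives about 1 in 20.

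On unassigned array B of week 18, whose labels conflict, 3 of the 9 genes were above every LFC array: Mt2 at 6.96 (highest LFC level 6.73), Tsc22d3 at 4.38 (highest 3.37) and Zbtb16 at 3.11 (highest 2.73). The Mt2 probe was saturated on array B and on 3 LFC arrays, so its order among these is uncertain. Only levels above those of LFC were looked for. The share of all probes above every LFC array was not computed, so the count says nothing particular about these genes.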

How the results depend on the processing

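The number of the 9 genes past the threshold was 0 under each alternative run for HFC against LFC, HF5 and HF20 against HFC, the later against the earlier period and the interaction, leaving out each time point included. For HF75 it was 0 except with array quality weights, where it was 1 (Hsd11b1); leaving out each time point gave 0 to 0. With no replicate block the count was 0 for each diet comparison. For the WS arrays it was 4, or 5 with array quality weights, but leaving out each array gave 0 to 5. The 4 genes that fell kept their direction in each alternative. Of 1143 differences of single genes under alternatives, 86 changed sign, 0 of them among the called ones; 22 of the 86 had a main difference over 0.2 in size.

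Correlated pairs numbered 10, but 1 in the first 14 days (9 arrays) and 15 in weeks 3 to 18 (6 of them negative). They numbered 14 with quantile normalization, 17 relative to the mean of the time point, 1 below the gap and 5 above the second gap. The permutations took levels relative to a time point mean as independent, which they are not, so the 17 may be too high. The cause of the changes in count was not tested. Counts of probes moved more than those of the 9 genes. For HF75 the 293 probes became 145 with no filter, 1454 with array quality weights, 697 at a threshold of 0.1, 1 with no replicate block and 0 at the time points scanned on 1 day, and 0 to 207 when a time point was left out. For the WS arrays the 2223 became 498 with normexp, 761 with no filter, 13028 with weights and 5444 at 0.1, and 0 to 6753 when an array was left out. The interaction had 4908 with normexp, and the later period 14 with weights and 1 with no replicate block, against 0. Signal over background, 2.09 to 10.8 on the 36 arrays, limits what dim probes show.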

Other observations

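On unassigned array A of week 18, 21710 spots were outliers and 50% of the probes were well above background. Its levels were 3.94 for Mt2, 2.06 for Mt1 and 2.34 for Dusp1, and Fkbp5 was not measured. Array B, with 70.3% of its probes well above background, had Mt1 at 5.58, Sgk1 at 4.73, Dusp1 at 5.50, Fkbp5 at 0.62, Nr3c1 at 1.97 and Hsd11b1 at 2.89.

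Of the listed promoter starts with a RefSeq gene, 60.4% lie at the edge of the gene, and 13024 of 32850 lie inside it, as that of Mt1 does.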
